A study of Mus musculus with 2 samples.

Results

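The immunoproteasome and the class I antigen presentation machinery were followed through 10 named genes in primary mouse osteoblasts: Psmb8, Psmb9 and Psmb10, Psme1 and Psme2, Tap1, Tap2 and Tapbp, B2m and H2-D1. A gene entered by every probe set (a group of short probes against 1 transcript) that the array annotation gives to it alone, which held for 9 of the 10 genes and 23 probe sets, out of 18193 genes on the array. Psme2 had none, because its probe set is also given to Psme2b. The genes were listed with their difference between these same arrays in view, so every ratio below is a description and supports nothing beyond itself.

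The osteoblasts, the cells that lay down bone, were grown from the skull vault of CD1 mice aged 7 days, starved of serum for 24 h, and treated for another 24 h with the vehicle DMSO or with 2 µM PP1, an inhibitor of Src family tyrosine kinases. The DMSO culture went through the same starvation as the PP1 culture. Each condition is 1 array with no replicate, so no value has an error between cultures and no test was possible. The labels do not say how many mice gave the cells. Of 8 osteoblast markers with a probe set, Col1a1, Col1a2, Alpl, Sp7, Ibsp and Pth1r had a signal above the median of all probe sets on at least 1 array, while Dmp1 and Phex, of mineralizing osteoblasts and osteocytes, did not. Of 18 macrophage markers, 17 had such a signal.

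Cells chop proteins in the proteasome, and class I molecules carry some of the resulting peptides to the cell surface for inspection by cytotoxic T cells. Under interferon, cells build new cores with Psmb8, Psmb9 and Psmb10 in place of the constitutive catalytic subunits, and this form is called the immunoproteasome. The PA28 cap, built of Psme1 and Psme2, opens the core and speeds the release of peptides. Tap1 and Tap2 pump the peptides into the endoplasmic reticulum, tapasin (Tapbp) holds the pump next to empty class I molecules, and these consist of a heavy chain such as H2-D1 with the light chain B2m.

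Of the 10 genes, 6 lie on chromosome 17 in the stretch from Tapbp to H2-D1, the major histocompatibility complex, and 4 lie elsewhere. Psmb9, Tap1, Psmb8 and Tap2 are neighbours in this order among protein-coding genes. Psmb9 and Tap1 point away from each other, and only 225 bases separate their starts, so that both genes share 1 promoter region. That stretch is shown because its genes had unlike ratios, and the promoters of Psmb8, B2m and H2-D1 because they hold matches to motifs of interferon or NF-kB signalling. All sequences are from RefSeq, build GRCm38.p6, which is a C57BL/6J genome and not CD1, and run 5′ to 3′. The Psmb9 to Tap1 stretch, chr17:34187331-34187555, is read on the plus strand, the strand of Tap1, and its capitals mark a CCAAT box and a GC box. The other sequences are the 250 bases before the start, on the plus strand, of Psmb8 (chr17:34197945-34198194), B2m (chr2:122147437-122147686) and H2-D1 (chr17:35262844-35263093). Capitals mark a STAT motif in Psmb8, an IRF motif followed by an NF-kB motif in B2m, and an NF-kB motif in H2-D1.
Psmb9 to Tap1: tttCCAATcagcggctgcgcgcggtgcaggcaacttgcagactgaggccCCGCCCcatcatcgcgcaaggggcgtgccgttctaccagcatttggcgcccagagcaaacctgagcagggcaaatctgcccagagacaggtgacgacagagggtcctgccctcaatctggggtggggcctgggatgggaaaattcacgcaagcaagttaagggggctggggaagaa
Psmb8: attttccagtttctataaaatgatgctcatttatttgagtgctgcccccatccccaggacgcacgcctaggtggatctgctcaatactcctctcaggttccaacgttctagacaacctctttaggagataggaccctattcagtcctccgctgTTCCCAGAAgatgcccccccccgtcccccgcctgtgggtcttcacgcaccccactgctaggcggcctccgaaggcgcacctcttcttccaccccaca
B2m: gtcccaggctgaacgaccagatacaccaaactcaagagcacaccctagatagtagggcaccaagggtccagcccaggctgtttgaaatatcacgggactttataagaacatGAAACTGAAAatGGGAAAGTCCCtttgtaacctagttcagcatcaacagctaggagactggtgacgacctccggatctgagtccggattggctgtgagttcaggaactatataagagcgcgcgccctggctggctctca
H2-D1: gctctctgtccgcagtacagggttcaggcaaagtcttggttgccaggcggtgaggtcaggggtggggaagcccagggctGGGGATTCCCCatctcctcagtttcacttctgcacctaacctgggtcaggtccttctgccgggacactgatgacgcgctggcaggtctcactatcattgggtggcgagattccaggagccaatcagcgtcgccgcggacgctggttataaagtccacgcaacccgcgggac

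The motifs were searched on both strands in windows from 250 bases before to 50 bases after each start, and such a window was in the table used here for 9 of the 10 genes, all but Tap2. The IRF motif GAAANNGAAA, bound by interferon regulatory factors, matched in B2m, at -139 to -130, and in Psme1, at 10 to 19 after the start, against 3.44% of 32851 windows of all genes. The STAT motif TTCNNNGAA matched only in Psmb8 among these 9 genes, at -97 to -89, against 8.30% of all windows. The NF-kB motif GGGANNNNCC matched in B2m, at -127 to -117, and in H2-D1, at -171 to -161, each time on both strands over nearly the same bases, against 20.7% of all windows. In B2m it starts just after the IRF match, without overlap. The CCAAT letters were in 5 of the 9 genes (B2m, H2-D1, Psmb9, Tap1 and Tapbp) against 37.4% of windows, and the GC box GGGCGG in 5 (Psmb9, Tap1, Psme1, Psme2 and Tapbp) against 35.7%. For Psmb9 and Tap1 these are the same bases, since their windows share 275 of 300 bases. Psmb10 had no match to the searched letters. Only exact matches to these letters were counted, so a gene without a match may still hold a binding site that differs from them. This includes the IRF letters in H2-D1.

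**Figure D1:**
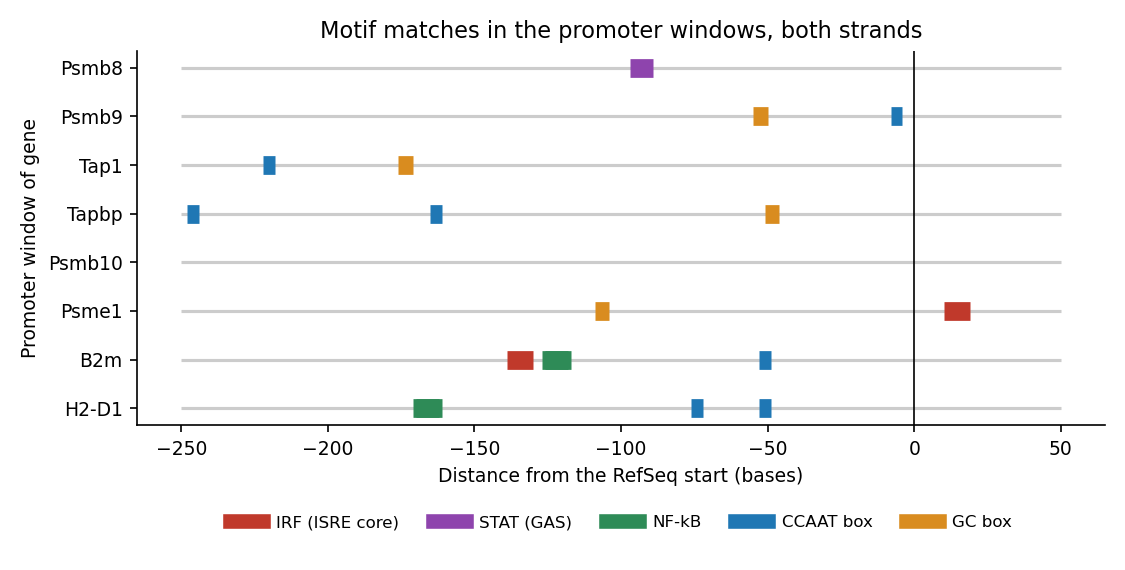
Matches to 5 motifs in the promoter windows of 8 genes, by distance in bases from the RefSeq start (Psme2, with 2 windows, is left out). B2m holds an IRF and an NF-kB match side by side, Psmb8 a STAT match, and the boxes of Psmb9 and Tap1 are the same bases seen from opposite starts.

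Values are MAS5 signals, linear intensities per probe set, with those of the PP1 array raised by a factor of 1.68 to give the arrays equal trimmed means. Signals under 31.7, the median of all probe sets, were set to that floor, and a gene is given by its brightest probe set. A gene is called measured when this probe set exceeds the floor on either array, as did all 9 genes and 12111 genes in all. The deposited PP1 values were dimmer, and the median gene then stood at -0.70 on the log2 scale, so "higher" and "lower" mean relative to the bulk of genes. Without the scaling, 5 of the 9 genes were lower with PP1 and 4 were higher. Bacterial controls added at hybridization had a deposited log2 ratio of 0.09 (SD 0.20 over 18 probe sets) and did not share the dimming. The SD of the log2 ratio between probe sets of the same gene was 0.41, over 4745 genes, and it covers error between probes, not between cultures. The log2 of 3′ over 5′ control signal, which tracks RNA quality, was -0.51 apart (PP1 minus DMSO) for Gapdh, -0.34 for Pcx and 0.14 for Actb.

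All 9 measured genes had a log2 ratio above 0 after scaling, against 51.0% of all measured genes. At least 2-fold higher were 4 of them, Psmb8, Psmb9, Psmb10 and H2-D1, where 2.97% of all measured genes were. None was 2-fold lower, against 1.55%. The other 5, Psme1, Tap1, Tap2, Tapbp and B2m, lay close together, from 0.53 to 0.64. The median over the 9 genes was 0.64, and over all measured genes 0.01. Of the 15 probe sets above the floor on at least 1 array, all had a ratio above 0, and 8 were at least 2-fold higher, while 8 further probe sets were under the floor on both arrays. The genes were chosen from this contrast, so nothing is read from these counts.

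**Figure D2:**
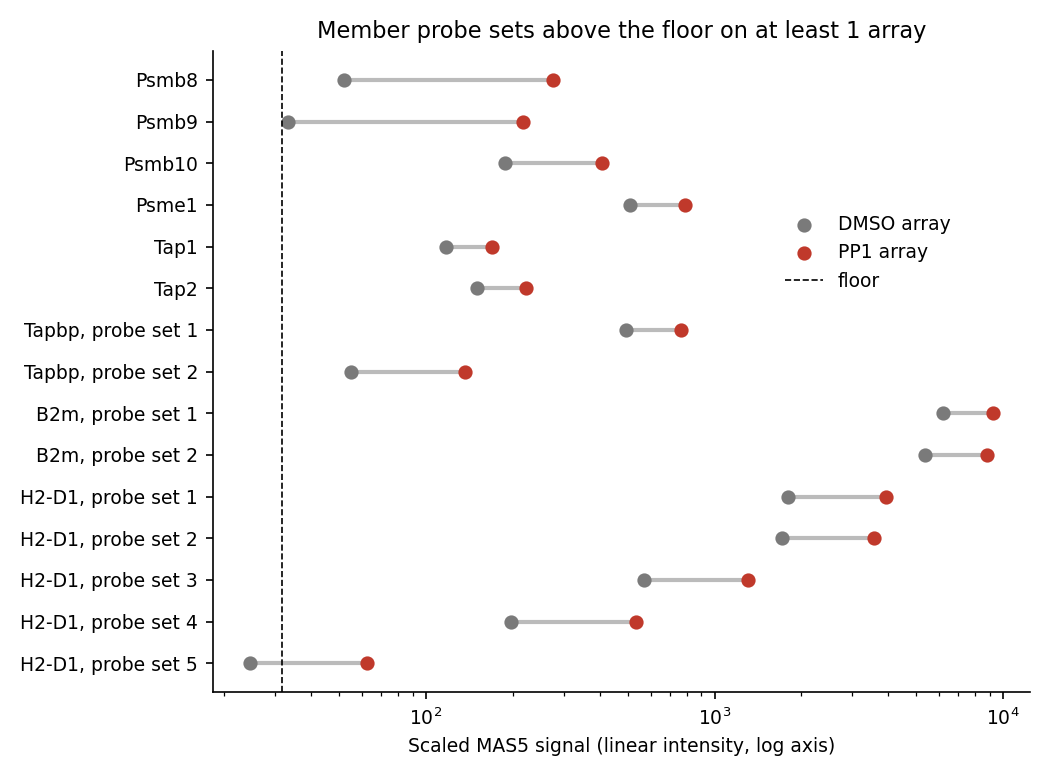
Scaled MAS5 signal (log axis) on the DMSO and the PP1 array for the 15 probe sets above the floor of 31.7 on at least 1 array, numbered by DMSO signal within a gene. The PP1 point lies to the right in each of them after scaling, with the widest gaps for Psmb9 and Psmb8, whose DMSO points are close to the floor; as deposited, the brightest probe sets of Psme1, Tap1, Tap2, Tapbp and B2m were lower with PP1.

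Among the immunoproteasome catalytic subunits, Psmb9 and Psmb8 had the widest differences of the 9 genes. Psmb9, the beta1i subunit, had a scaled signal of 33.2 with DMSO and 216.0 with PP1, and was 6.51-fold higher, a log2 ratio of 2.70. Under this scaling and floor it ranked first of the 12111 measured genes. Psmb8, the beta5i subunit, had 51.9 with DMSO and 276 with PP1, and was 5.32-fold higher, a log2 ratio of 2.41. Its second probe set was under the floor on both arrays, with signals of 17.8 and 20.1. Psmb10, the beta2i subunit, had 188 and 406 and was 2.16-fold higher, a log2 ratio of 1.11.

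All 3 were also higher on the PP1 array as deposited, by 3.87-fold for Psmb9, 3.17-fold for Psmb8 and 1.29-fold for Psmb10. Each rests on 1 probe set. The DMSO signals of Psmb9 and Psmb8 lay within 2 times the floor, a range in which 6.06% of 1717 genes reached 2-fold higher, against 1.43% of the 7771 with a DMSO signal of 4 times the floor or more. With a floor at the 75th percentile of all signals, the ratio of Psmb9 was 0.42 and that of Psmb8 0.78, both as lower bounds because DMSO was at the floor.

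The constitutive subunits that these 3 replace did not share the difference. Psmb5 (beta5) had signals of 1442 and 1335, a log2 ratio of -0.11. Psmb6 (beta1) had 1463 and 1150, a ratio of -0.35, and Psmb7 (beta2) had 2907 and 3409, a ratio of 0.23. Within each catalytic position the immunoproteasome subunit stood higher than its partner by 2.52 for Psmb8 over Psmb5, 3.05 for Psmb9 over Psmb6 and 0.88 for Psmb10 over Psmb7. These differences of log2 ratios do not depend on the factor between the arrays. That of Psmb10 over Psmb7 lies close to 2 SD (0.83) of the ratio of a single probe set. A difference of 2 ratios spreads more than a single ratio, so it stands out by less than 2 SD of its own spread. With the floor at the 75th percentile the 3 differences came to 0.89, 0.77 and 0.88, the first and second as lower bounds.

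**Figure D3:**
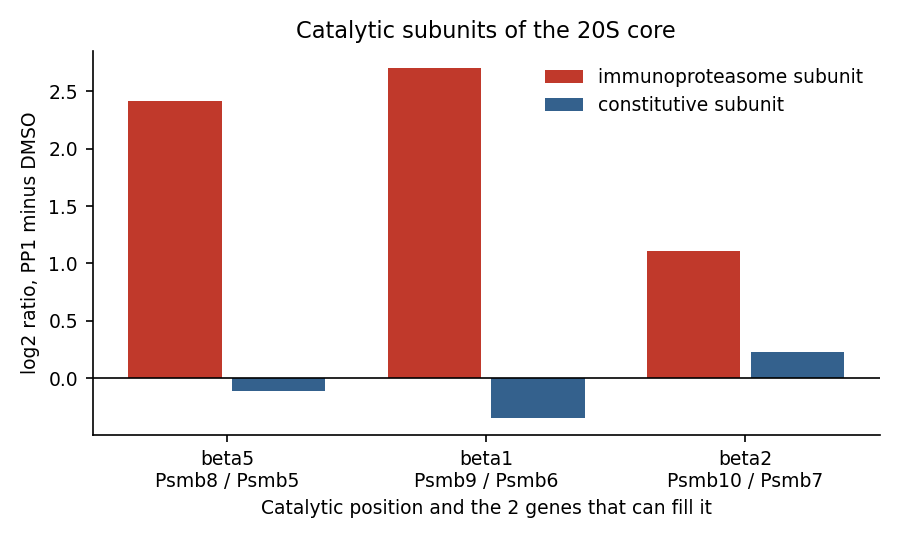
Log2 ratio of PP1 to DMSO for the immunoproteasome subunit and the constitutive subunit of each catalytic position, from 1 array per condition and 1 probe set per gene. Psmb8, Psmb9 and Psmb10 lie at 2.41, 2.70 and 1.11, and Psmb5, Psmb6 and Psmb7 at -0.11, -0.35 and 0.23; as deposited, without scaling, all bars shift by -0.75 and Psmb7 is below 0 too.

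Most other core subunits and assembly factors lay slightly below the bulk. Of 16 other core subunits and assembly factors, 3 were above 0 and 13 below, none was 2-fold different in either direction, and their median was -0.21. The lowest were the core subunits Psma1 (-0.60, though 0.40 by its other probe set) and Psmb3 (-0.56) and the assembly factors Psmg4 (-0.48) and Psmg2 (-0.45, up to 0.24 among its 3 probe sets). The maturation factor Pomp, which helps to assemble new cores, was at 0.13. By the brightest probe sets, the highest of the 19 constitutive core and assembly genes was at 0.23, below the lowest of the 3 inducible subunits. The highest of their other probe sets was that of Psma6, at 0.72, against 0.14 by its brightest.

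The PA28 cap was represented by Psme1, its alpha subunit, with signals of 509.5 and 788, 1.55-fold higher after scaling (log2 ratio 0.63) and lower as deposited (-0.12). The probe set shared by Psme2 and Psme2b had signals of 1075 and 1464, a ratio of 0.45 after scaling, and cannot be given to Psme2 alone. By their brightest probe sets, the other caps and the inhibitor of the core were closer to 0. Psme3, which forms a nuclear cap, was at 0.03 (-0.83 by its other probe set), Psme4 at -0.12 (its 4 probe sets from -0.55 to 0.20) and the inhibitor Psmf1 at -0.00 (its 4 from -0.15 to 0.59). The cytosolic peptidases that trim or destroy the products were all slightly lower, 5 of 5 below 0 with a median of -0.23, among them Lap3 (-0.28), Tpp2 (-0.26, its 5 probe sets from -0.47 to 0.21), Thop1 (-0.23) and Blmh (-0.10, or 0.65 by its other probe set).

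Peptide transport and loading genes were higher by less than 2-fold after scaling. Tap1 had signals of 117 and 169, 1.44-fold higher (log2 ratio 0.53), and Tap2 had 149.6 and 222, 1.48-fold higher (0.57). Both were lower as deposited, at -0.22 and -0.18. The other 3 probe sets of Tap1 were under the floor on both arrays, so each chain of the transporter rests on a single probe set. Tapbp had 492 and 767 by its brighter probe set, a ratio of 0.64 (-0.11 as deposited), and 55.0 and 136 by the other, a ratio of 1.31 (0.56 as deposited). Its direction without scaling therefore depends on the probe set.

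Tap1 and Psmb9, which share the printed promoter region, differed by 2.17 in their log2 ratios, and the next pair of neighbours, Psmb8 and Tap2, by 1.84. In the chromosomal order Psmb9, Tap1, Psmb8, Tap2 the ratios were 2.70, 0.53, 2.41 and 0.57, so the proteasome genes and the transporter genes alternate between large and small ratios. With the floor at the 75th percentile, where Psmb9, Psmb8, Tap1 and Tap2 had their DMSO signal at the floor, this contrast could not be measured.

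Of 8 other genes of loading and trimming in the endoplasmic reticulum, 6 were above 0 and none was 2-fold different (median 0.36). Of all measured genes, 51.0% were above 0. As deposited, the median of these 8 was -0.39. The highest were Erap1, the aminopeptidase that trims peptides to class I length (0.71, and 0.79 by its other probe set), and the tapasin relative Tapbpl (0.66). Bcap31, a sorting factor of the endoplasmic reticulum, was at 0.47 (-0.02 by its other probe set) and Pdia3, a partner of tapasin, at 0.39 (-0.86 by its other probe set). The chaperones Canx and Hspa5 were at 0.11 and -0.27.

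Both chains of the class I molecule were higher after scaling. B2m, the light chain, had signals of 6201 and 9197 by its brighter probe set, 1.48-fold higher (log2 ratio 0.57), and 5352 and 8829 by the other (0.72). As deposited both were slightly lower, at -0.18 and -0.03. The heavy chain H2-D1 had signals of 1798 and 3933 by its brightest probe set, 2.19-fold higher (log2 ratio 1.13), and it was higher as deposited too (0.38). Its 5 probe sets above the floor on at least 1 array ran from 0.98 to 1.44, the lowest a bound because DMSO was under the floor. The other 4 were under the floor on both arrays.

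By their names, 7 of the 9 H2-D1 probe sets are marked as shared, meaning that their probes may also match other sequences. These include 4 of the 5 above the floor. Only 1 above the floor is not so marked, with signals of 196 and 532 and a ratio of 1.44. The heavy chains are near-identical copies and vary between mouse strains, so H2-D1 signals may include H2-K1 and its relatives. A probe set given to both H2-K1 and H2-D1 had signals of 965 and 2145.

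Of 23 other class I and class I-like heavy chains, only 12 had a probe set of their own, and 6 were measured. As deposited, the measured chains had a median of 0.15 and none was 2-fold higher. After scaling all 6 were above 0 (median 0.90), against 51.0% of all measured genes. At least 2-fold higher were 2, against 2.97% of all measured genes. These were Fcgrt, the neonatal Fc receptor (signals of 315 and 784, ratio 1.31), and the lipid-presenting Cd1d1 (90.6 and 196, ratio 1.11, and 1.45 by its other probe set). H2-K1, the other main peptide-presenting chain, had signals of 3371 and 6290 (ratio 0.90), and Mr1, which presents vitamin metabolites to T cells, had 80.4 and 151 (0.91, but -0.24 by its other probe set). Of the 4 probe sets of H2-K1, 3 lay between 0.90 and 1.17, and the fourth, singled out after its value was seen, stood at 2.67 with signals of 456 and 2909. All 4 are marked as shared, so H2-K1 signals may include H2-D1 and other heavy chains.

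**Figure D4:**
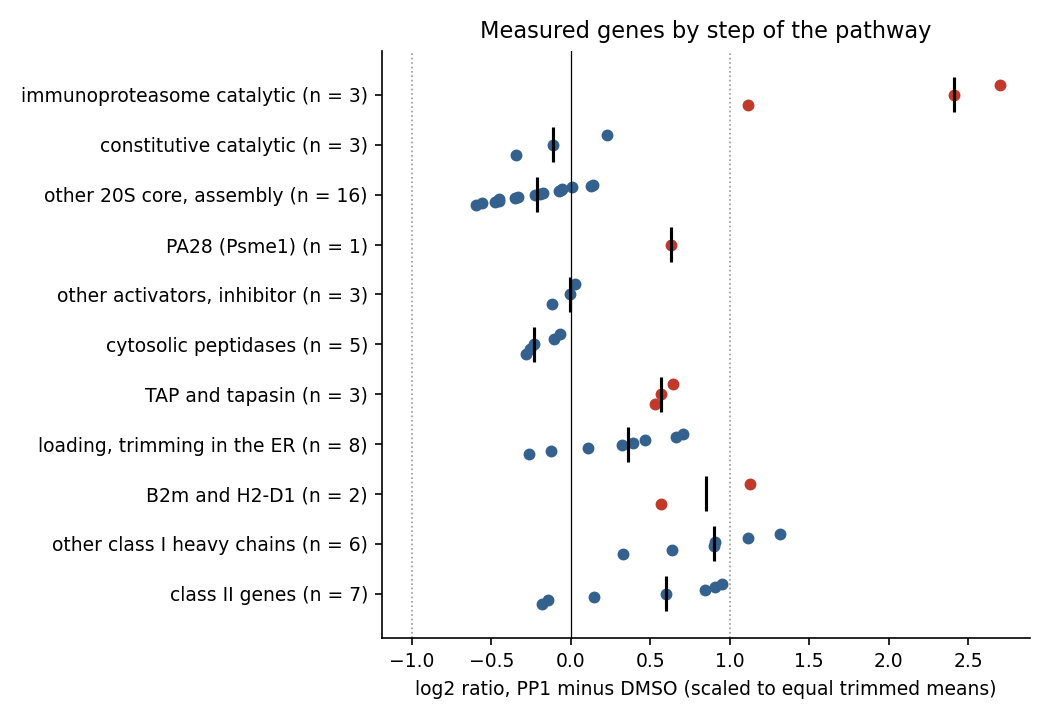
Log2 ratio of PP1 to DMSO for each measured gene by its brightest probe set, grouped by step of the pathway, with the genes of the 10-gene list in red, others in blue, the median of each group as a black bar and 2-fold as dotted lines. The immunoproteasome subunits lie at 1.11 to 2.70, the 16 other core and assembly genes at -0.60 to 0.14, the transport genes and tapasin at 0.53 to 0.64, and B2m and H2-D1 at 0.57 and 1.13; without scaling points shift by about -0.75, which puts Psme1, Tap1, Tap2, Tapbp and B2m below 0.

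Among 11 measured regulators of class I genes, 9 were above 0 and 2 at least 2-fold higher (median 0.50). Of all measured genes, 51.0% were above 0 and 2.97% at least 2-fold higher. As deposited, the median of the regulators was -0.25, where the median gene stood at -0.70, and no regulator was 2-fold higher. Stat2, part of the type I interferon signal, had signals of 42.7 and 140 (ratio 1.72, and 1.74 by its other probe set), and Nlrc5, the transactivator of class I genes, had 32.3 and 75.8 (1.23, from a single dim probe set). Irf1, which drives immunoproteasome genes, had 288 and 490.3 (0.77), and Irf2 had 117 and 197 (0.75). Of the interferons, only Ifng and Ifnb1 were looked at. Both were under the floor on both arrays, which does not show that they were absent. Of 12 measured ligands, receptors and kinases of interferon and tumour necrosis factor signalling, 7 were above 0 and none was 2-fold different by its brightest probe set (median 0.04), with the feedback inhibitor Socs1 at 0.79 (a bound, with DMSO under the floor), Jak1 at 0.69 (its 3 probe sets from 0.34 to 1.65), Ifngr1 at -0.52 and Socs3 at -0.36. Ifngr2 was at 0.06, and at 1.38 by its other probe set.

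Class II genes, which mark professional antigen-presenting cells, were dim except for the protease Ctss (signals of 1845 and 1625). Of 7 measured, 5 were above 0, against 51.0% of all measured genes, and none was 2-fold different (median 0.60). As deposited, their median was -0.09. The largest ratios were those of the invariant chain Cd74 (78.1 and 151, ratio 0.95), the loading factor H2-DMa (0.91) and H2-Ab1 (0.85), while H2-Aa was at -0.14. Their transactivator Ciita was under the floor on both arrays. The median rests on dim genes: it was 0.14 without probe sets marked as shared and -0.13 with the floor at the 75th percentile, both relative to the bulk.

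Cells other than osteoblasts carry much of this machinery, and in a bulk culture fewer cells of a type and less RNA per cell cannot be told apart. The 17 measured macrophage markers had a median ratio of 0.10, with 11 above 0 and 1 at least 2-fold higher. The shares of all measured genes were 51.0% and 2.97%. The summed scaled signal of these markers was 17860 with DMSO and 20360 with PP1. Mrc1 stood at 1.11 and Cd68 at 0.73. C1qb was at -0.76 (its 3 probe sets from -1.16 to -0.17) and Laptm5 at 0.64 (its 4 above the floor from -0.80 to 0.64). Of the 18 listed, only Aif1 was under the floor on both arrays. Among 11 T and NK cell markers on the array, 10 were under the floor on both, Cd3d, Cd3e, Cd3g and Nkg7 included, and Cd8a had 44.8 and 48.4. Of 10 B cell and dendritic cell markers, 4 were measured, with a summed signal of 213 and 174 and a median of -0.25, and Cd79a, Cd79b and Ms4a1 were under the floor. Of 8 endothelial markers, 4 were measured, all dim, with a summed signal of 126 and 166 (Tek at 0.77), and Pecam1 was under the floor. Osteoclast markers, with 6 of 8 measured, had a median of -0.11 and summed to 1693 and 1561 (Mmp9 at -0.81). For the 9 markers of fibroblasts and periosteum the median was 0.46, and they summed to 13470 and 18370, with Scara5 at 1.66 and Twist1 at 1.54. Osteoblast markers, with 6 of 8 measured and Dmp1 and Phex under the floor, summed to 16030 and 21630 (median 0.07). Most of both sums was Col1a1 (7558 and 9931) and Col1a2 (7809 and 11170, though its lowest probe set was at -0.91). Of the other measured markers, Alpl was at 0.37, Pth1r at -0.23, Sp7 at -0.43 and Ibsp at -2.08. The part of these cells in the class I and immunoproteasome ratios was not tested.

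**Figure D5:**
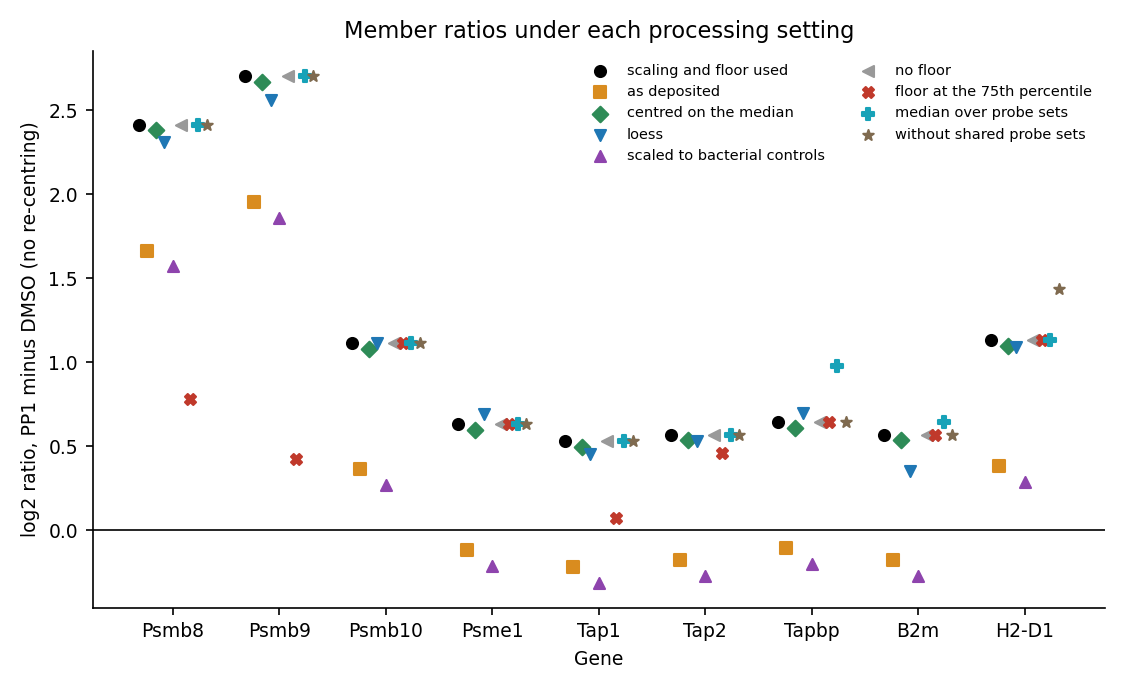
Log2 ratio of PP1 to DMSO for each of the 9 genes under the scaling and floor used and under 8 alternatives, with no re-centring. Psmb8, Psmb9, Psmb10 and H2-D1 are above 0 throughout; Psme1, Tap1, Tap2, Tapbp and B2m are below 0 as deposited and when scaled to the bacterial controls, and the floor at the 75th percentile lowers Psmb8 and Psmb9 most.

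In order of their log2 ratios, Psmb9 and Psmb8 came first and differed by 0.29, less than the probe set SD of 0.41. H2-D1 and Psmb10 followed, 0.02 apart, and the gap from Psmb8 down to H2-D1 was 1.28. The gap from Psmb10 to Tapbp, the highest of the remaining 5 genes, was 0.47, little more than that SD, and these 5 genes spanned 0.11. By its dimmer probe set Tapbp stood above H2-D1 and Psmb10, so its place in this order is not settled.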

How the data were processed

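Expression was measured on 2 arrays, 1 per condition. The deposited values are MAS5 signals, linear intensities per probe set that the authors made from each array, per the submitters' processing notes. Neither its version nor its target scaling is stated in the labels. There were 45101 probe sets in the table, 64 of them controls. Genes were named through the platform annotation and updated by identifier through a RefSeq table of assembly GRCm38.p6 (34741 of 34945 probe sets with 1 gene matched), while 932 probe sets with several genes and 9160 with none here entered no gene value.

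The PP1 array was scaled to equal trimmed means (2% at each end), signals were floored at the median, and log2 was taken. A dim floor understates ratios of dim genes. There are no replicates, so no test or p-value is given, and the number of arrays limits the precision. Named genes are the 10 listed, Psmb5, Psmb6, Psmb7, Nlrc5, Irf1, Ifng and Ifnb1, and up to 4 per list with the largest ratio, plus others named as present, absent or as background. The members and lists were chosen with earlier results of these data known. The steps were tested on simulated data. Alternatives were other scalings, floors, probe set rules and folds of 1.5 and 3. The work used Python 3.11.15, pandas 2.3.3 and statsmodels 0.14.6.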

Additional observations from a re-analysis of the deposited data

Results flagged for a closer look

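Probe sets that the annotation gives to several genes entered no gene value, yet some of those for class I heavy chains were at least 2-fold higher on the PP1 array after scaling. The probe set given to H2-K1 and H2-D1 had a log2 ratio of 1.15. The probe set given to H2-Q6 and H2-Q8 had 1.08, from signals of 86.4 and 183, and 1 given to H2-T23 and the pseudogene H2-T-ps had 1.09, from 195 and 416. As deposited these ratios were 0.40, 0.33 and 0.34, in the same order. Another probe set of H2-T23 and H2-T-ps was under the floor on both arrays. That given to H2-Q6, H2-Q8 and H2-Q4 stood at 0.31, a bound because DMSO was under the floor. The probe set of H2-T9, H2-T22 and H2-T10 stood at 0.81 and that of H2-Q7 and H2-Q9 at 0.60, whereas 1 given to H2-Bl, Gm38417 and LOC547349 stood at -0.74. No replicate exists for any of them.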

How the results depend on the processing

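Ratios and counts here are re-centred on the gene median of the scaling used; as deposited that median moved by -0.71, and with bacterial controls by -0.80. Re-centring takes out a factor applied to a whole array, so alternatives that differ only in that factor could hardly move these ratios. After it, none of the 72 ratios of the 9 genes under 8 alternatives changed sign, and 70 moved by less than the probe set SD of 0.41. The exceptions were Psmb8 (0.83) and Psmb9 (0.47) with the floor at the 75th percentile, where their DMSO signals were raised to the floor. With that floor, 2 of the 9 genes were at least 2-fold higher, H2-D1 and Psmb10. A different 2, Psmb8 and Psmb9, were at least 3-fold higher with the floor used. Unshifted, 2 of the 9 genes were at least 2-fold higher as deposited and with bacterial controls, Psmb8 and Psmb9. Under both of these alternatives 5 genes were below 0 unshifted, namely Psme1, Tap1, Tap2, Tapbp and B2m. With a 1.5-fold threshold, the counts of higher genes became 5 for other class I heavy chains, 2 for loading and trimming genes, 4 for regulators, 2 for interferon and tumour necrosis factor signalling, 4 for class II genes and 3 for macrophage markers, and 1 other core or assembly gene and 1 macrophage marker were lower. With a 3-fold threshold they were 0 for other class I heavy chains, 1 for regulators and 0 for macrophage markers. The floor at the 75th percentile left 1 other heavy chain and 0 regulators, and put the class II median at -0.13; without shared probe sets it was 0.14. In interferon and tumour necrosis factor signalling, 1 gene was 2-fold higher as deposited, 1 with bacterial controls and 1 with no floor. Dim signals limit Psmb8, Psmb9, Nlrc5 and most class II genes. No paired analysis was possible because each condition has 1 array.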

Other observations

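The genes that lie between Tapbp and H2-D1 on chromosome 17 but belong to none of the antigen presentation lists were looked at after the data had been seen. Of 48 such measured genes, 34 were above 0 after scaling (against 51.0% of all measured genes), with a median log2 ratio of 0.30, and 4 were at least 2-fold higher (against 2.97%) and 0 at least 2-fold lower (against 1.55%). The 4 were complement factor B (Cfb, 1.31), the nitric oxide pathway gene Ddah2 (1.11), the matrix protein gene Tnxb (1.07) and the RNA helicase gene Skiv2l (1.02). At the other end were Rxrb (-0.66), a nuclear receptor, and Vars (-0.44), a tRNA synthetase. The 12 measured antigen presentation genes of the same stretch had a median of 0.74, with 11 above 0. Of these 12, 6 are followed in this report and were listed with this contrast in view, so nothing is read from the gap between the medians. No error can be given for these medians, and neighbouring genes are not independent.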
